A study of Caenorhabditis elegans with 4 samples.

Results

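Of the 7831 nuclear REC-8 peaks in the deposited series-wide list, 1535 lay in tight clusters. A cluster here is a run of at least 3 consecutive peaks on the same chromosome in which every gap, from the end of a peak to the start of the next, is under 1000 bp. The 1535 clustered peaks formed 401 clusters and made up 19.6% of the nuclear peaks (exact 95% interval 18.7 to 20.5). They were selected on the called positions of the series-wide list alone. Scores, widths and positions of that list come from the same peak calls as the rule, so they are described below with no test. Of the 6296 other nuclear peaks, 1672 lay in runs of 2 and 4624 had no neighbour within the limit.

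The series mapped REC-8 by ChIP-seq in young adult hermaphrodite Caenorhabditis elegans that contained a germline, of the genotype fem-2(b245)III, grown at 20 °C. It has 2 REC-8 ChIP samples, immunoprecipitated with the affinity-purified rabbit polyclonal antibody SDQ0802, and 2 input DNA samples of the same strain. FEM-2 is a phosphatase that promotes male fate, and all samples carry the same allele, so no wild-type worms enter. Chromatin came from whole ground worms, in which germline and somatic nuclei are mixed. The data used here are 3 peak lists, 1 for each ChIP replicate (2001 peaks in replicate 1 and 5347 in replicate 2) and 1 for the series as a whole. Positions are in WormBase WS220. The lists hold no read counts, so depth is unknown, and the input samples have no list of their own here. Whether the replicates came from separate cultures is not stated, and each replicate list is 1 sample.

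REC-8 is a meiosis-specific kleisin, the subunit that closes the cohesin ring around DNA. Cohesin holds sister chromatids together from replication until they separate. In the meiotic germline REC-8 cohesin also forms part of the chromosome axis, from which chromatin loops extend. Chromosomes of C. elegans are holocentric and have no single localised centromere, so cohesin sites are read along their whole length. Several close sites and 1 broad stretch of signal called in pieces cannot be told apart from peak lists alone.

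Most clusters were short. There were 239 clusters of 3 peaks, 90 of 4, 33 of 5 and 16 of 6, and 23 had 7 or more, up to 12. The median span was 2371 bp (quartiles 1711 and 3382 bp), with a range from 753 to 16129 bp. Together the clusters spanned 1147 kb, 1.14% of the nuclear extent of 100.3 Mb, and their peaks covered 727 kb, which is 24.3% of all bases under nuclear peaks. Within clusters the median gap was 298 bp (quartiles 134 and 577 bp, n = 1134 gaps) and the smallest was 44 bp. Across the genome the median gap was 4505 bp. Clusters themselves lay far apart, with a median of 141820 bp to the next cluster on the chromosome, and 39 of 395 such distances were under 10 kb.

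The limit of 1000 bp does not fall at a break in the distribution of gaps. There were 109 gaps in the last 100 bp under the limit and 105 in the first 100 bp from it. Peaks beside the gaps just inside scored 7.27 in the median and were 308 bp wide, and those beside the gaps just outside scored 8.24 and were 317 bp wide. Some pairs of clusters were separated by little more than the limit. On chromosome I, 11 peaks from 4340993 to 4349000 were followed after 1092 bp by 9 peaks that end at 4357288. On chromosome III, 11 peaks from 13587205 to 13595003 were followed after 1073 bp by 4 more. In clusters of exactly 3 peaks the median peak scored 6.88 and was 298 bp wide, and in runs of 2, just outside the rule, it scored 8.10 and was 296.5 bp wide.

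**Figure D1:**
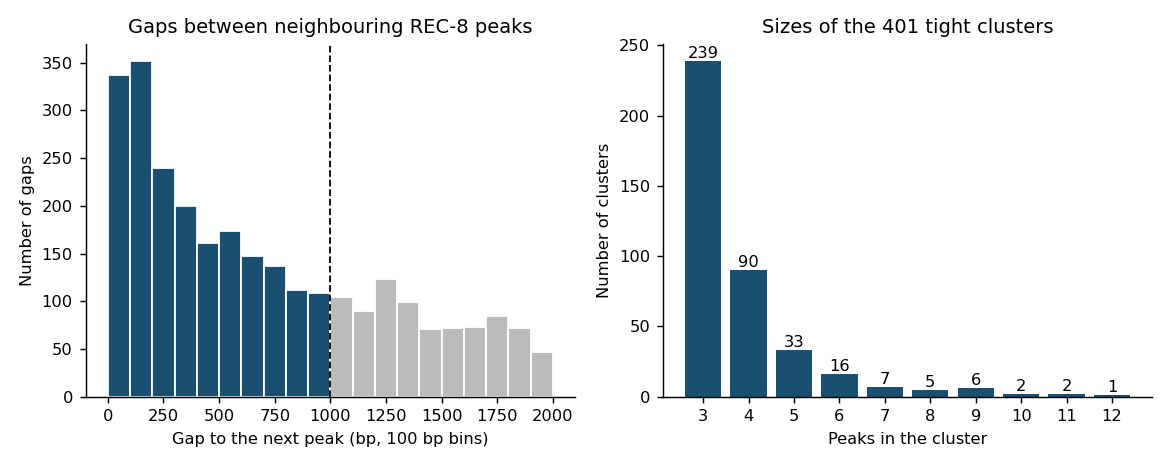
Left, number of gaps between neighbouring nuclear series-wide peaks in bins of 100 bp up to 2000 bp, with the limit of 1000 bp as a dashed line and the gaps under it in dark blue. Right, number of clusters by the number of peaks in them. The bins on either side of the limit hold 109 and 105 gaps, and 239 of the 401 clusters have 3 peaks.

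Of the 11 clusters with 9 or more peaks, 5 lay on X, which held 99 of all 401 clusters (24.7%). One of the 11, on chromosome I from 4350092 to 4357288, had 9 peaks over 7197 bp that all met neither replicate. The other 10 are described next, the tie at 9 peaks having been broken by summed score. The one with the most peaks was on X from 6735393 to 6750585, with 12 peaks over 15193 bp. Its series-wide scores ran from 1.81 to 75.28 around a median of 15.1, and its widest peak had 3485 bp. Replicate 1 had 5 peaks there with scores from 175 to 397. Replicate 2 had 10, with scores from 116 to 3100, and they covered 86.4% of the span, against 23.1% in replicate 1. Thus 3 of the 12 peaks met both replicates and the other 9 met replicate 2 alone.

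In the next 3 X clusters replicate 2 also covered more of the span. The cluster from 8014213 to 8023431 (10 peaks, 9219 bp) met 3 replicate 1 peaks and 5 replicate 2 peaks. The replicate 1 peaks covered 11.5% of it and the replicate 2 peaks 71.9%. The cluster from 7439082 to 7444525 (10 peaks over 5444 bp) met 0 replicate 1 peaks and 5 replicate 2 peaks, whose scores ran from 62.7 to 405. The cluster from 4136850 to 4148979 (9 peaks over 12130 bp) met 7 replicate 1 peaks with scores from 55.3 to 468, and 6 replicate 2 peaks with scores from 107 to 3100. The widest of these replicate 2 peaks had 6339 bp. Replicate 2 covered 86.1% of this cluster and replicate 1 covered 33.2%. The last X cluster, from 2058010 to 2063968 (9 peaks), went the other way, with 51.4% of its span under 6 replicate 1 peaks, 5 of which met a member, and 9.06% under 1 replicate 2 peak.

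The 2 clusters of 11 peaks were seen in replicate 1 and not in replicate 2. The 11 chromosome I peaks named above had series-wide scores between 3.56 and 8.68. A single replicate 1 peak of 4472 bp, with a score of 395, lay across 7 of them, and the other 4 met neither replicate. The 11 chromosome III peaks had scores between 1.86 and 6.37, and 7 replicate 1 peaks with scores from 56.4 to 288 met 7 of them. Replicate 2 had 0 peaks in either cluster. On chromosome V, the cluster from 13654071 to 13661064 (9 peaks, scores 2.44 to 19.4) met 7 replicate 2 peaks, which covered 86.8% of it, and 0 replicate 1 peaks. The other chromosome V cluster of 9 peaks, from 5838709 to 5846192 (9 peaks), met 5 peaks of replicate 1 and 6 of replicate 2, and 5 of its peaks met both. The chromosome II cluster with the most peaks, from 12050576 to 12057324 (9 peaks), met 1 replicate 1 peak with a score of 53.1 and 5 replicate 2 peaks with scores up to 1166. That of chromosome IV, from 14475945 to 14481026 (8 peaks over 5082 bp), had 5 neighbouring peaks with series-wide scores between 36.04 and 60.49, each met by both replicates. There replicate 1 scored up to 2667 and replicate 2 up to 183.

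**Figure D2:**
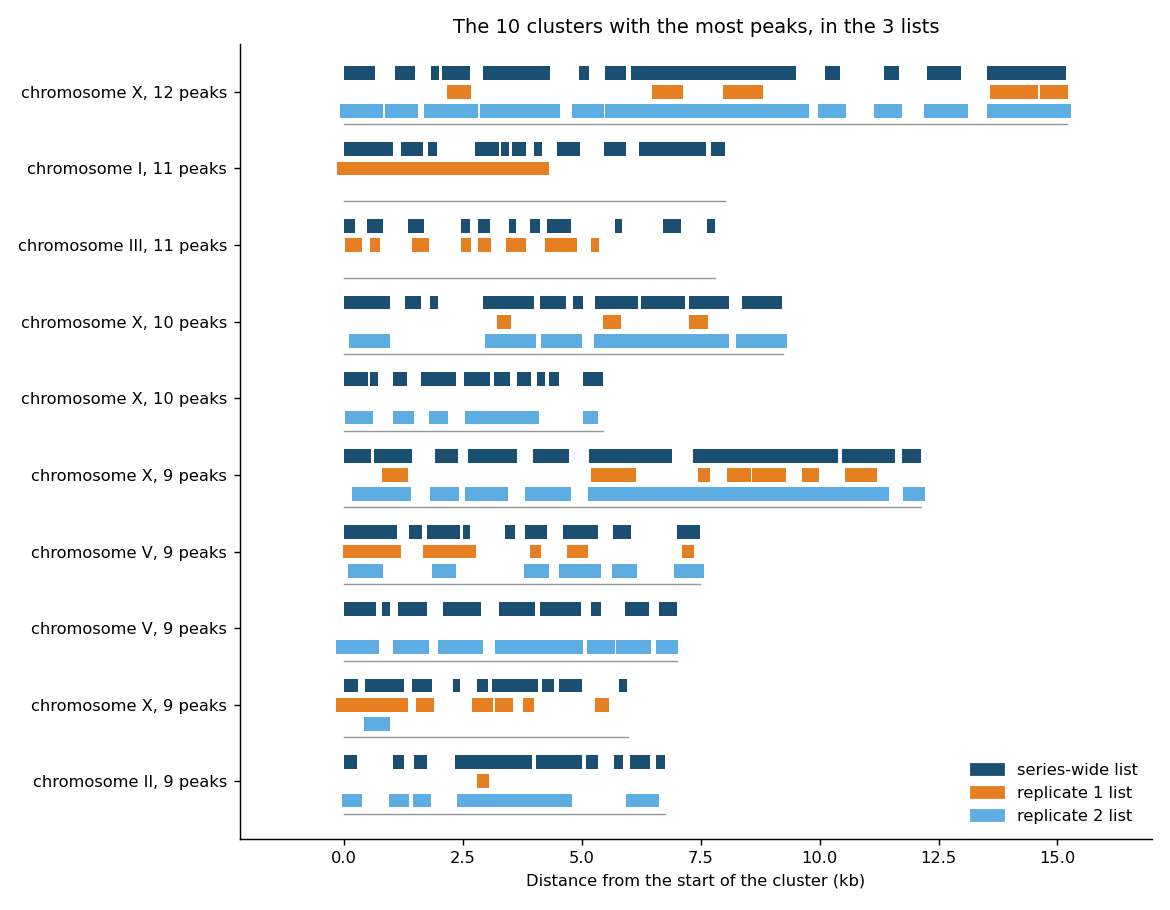
Peaks of the 10 clusters with the most peaks, with the tie at 9 peaks broken by summed score, drawn to scale from the start of each cluster in kb, with the series-wide peaks above, the replicate 1 peaks below them in orange and the replicate 2 peaks at the bottom in light blue; a grey line marks the span. In the 12-peak X cluster replicate 2 covers 86.4% of the span and replicate 1 covers 23.1%, while the chromosome I and III clusters of 11 peaks have 0 replicate 2 peaks.

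The 5 clusters that hold the highest single scores had 3 or 4 peaks each. Of all 401 clusters, 239 had 3 peaks and 90 had 4. The 5 spanned from 2942 to 5895 bp, against a median of 2371 bp over all clusters. The first was on X from 1385085 to 1390979, where 3 peaks scored 4.69, 113 and 199. The second was on chromosome IV from 3311285 to 3314376, where a peak of 708 bp scored 183 beside 3 peaks scoring between 3.41 and 19.3. The next 3 were on X, from 14523331 to 14528976 (highest score 175), from 8034552 to 8039141 (163) and from 13699486 to 13702427 (158). In the 4 X clusters the highest replicate score was 3100 in both replicates. That value recurs at the top of the lists, with 34 peaks at 3100 and 2 above it in replicate 1, and 41 at 3100 and 1 above it in replicate 2, so peaks at it cannot be ranked. In the chromosome IV cluster it was 1793 in replicate 1 and 2006 in replicate 2. Scores of 100 or more occurred in 19 clusters, 10 of them on X, which held 24.7% of all clusters. The widest span, 16129 bp, belonged to the X cluster from 16928092 to 16944220, in which 1 peak of 10690 bp (score 107) lay among 7 narrower peaks with scores from 3.57 to 23.3.

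Over all members, clustered peaks scored lower than the rest and were wider. The median series-wide score was 6.77 (quartiles 4.16 and 15.5) in clusters and 9.12 (5.04 and 19.1) among the other peaks, a ratio of 0.742. The clustered median was the lower one on 6 of 6 chromosomes. The lowest decile of all scores held 14.5% of clustered peaks (12.7 to 16.3) and 8.93% of the others (8.23 to 9.66). The highest decile held 9.32% (7.91 to 10.9) and 10.2% (9.43 to 10.9), with intervals that overlap. The same rule applied within each replicate list gave the opposite order: the median score in runs was 151 against 138 for the other peaks in replicate 1, and 175 against 156 in replicate 2. With the rule applied to series-wide peaks at or above the median score alone, the ratio was 1.08. Scores of different lists are not on 1 scale, so only the order within a list is compared.

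Width differed in the same direction in all 3 lists. The rule measures gaps from edge to edge, so at a given distance between midpoints wider peaks join a run more easily. That holds in each list, so the shared direction is partly built in. Width was not compared with runs found by midpoint distance. The median width was 324 bp in clusters and 288.5 bp among the other series-wide peaks, 467.5 bp against 412 bp in replicate 1 and 575 bp against 491 bp in replicate 2. On single chromosomes the clustered median was the higher one on 5 of 6, the exception being chromosome III with 305 bp against 309 bp. Peaks of 800 bp or more made up 12.4% of clustered peaks (10.8 to 14.2) and 4.70% of the others (4.19 to 5.25), against 6.22% of all nuclear peaks. In clusters of 8 to 12 peaks the share was 24.3% (17.7 to 32.1). Within each decile of score, clustered peaks had the wider median, by 14 to 247 bp, and the largest difference was in the highest decile (784 against 537 bp). Within each of 5 equal classes of width, clustered peaks had the lower median score.

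Peaks of the same cluster were unequal. Ranked by score within their cluster, the first peaks had a median of 20.6, those of rank 2 8.07 and those of rank 3 4.71 (n = 401 each). The widths followed, with medians of 508, 339 and 254 bp. A spread between ranks is fixed by the ranking itself, so a comparison was added after the values were seen. The peaks with no close neighbour were taken 3 at a time in their order and ranked in the same way. Clusters or runs of 2 can lie between the members of such a spaced triplet. In clusters of 3 the medians were 19.9, 7.01 and 3.89 (n = 239), against 22.7, 9.43 and 4.69 in the spaced triplets (n = 1539). The median ratio of the highest to the lowest peak was 4.65 in clusters and 4.33 in spaced triplets. The highest of 3 clustered peaks was the first on the chromosome in 87 clusters, the middle one in 67 and the last in 85.

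Replicate lists were next used as a second view of the members. The rule did not use them, but the series-wide list may draw on the same reads, so they are not independent of it. A peak met a replicate when it shared at least 1 bp with one of its peaks. Of clustered peaks 298 met both replicates (19.4%, 17.5 to 21.5), against 19.0% of other peaks (18.0 to 20.0) and 19.1% of all. The sign of this small difference changed with the rule, to -0.130 percentage points for clusters of 4 or more peaks and to -4.04 with a reciprocal overlap of 50%. The share that met neither was lower in clusters, 20.3% (18.3 to 22.4) against 28.5% (27.4 to 29.6), with 26.9% over all peaks. It was lower on 6 of 6 chromosomes. Within the 5 equal classes of width, however, it was lower in clusters in 2 and higher in 3. In the narrowest class it was 42.4% against 67.5%, and in the widest 3.11% against 2.60%. Replicate 2 alone met 47.2% of clustered peaks (44.6 to 49.7) and 49.8% of the others (48.6 to 51.1), with 49.3% over all.

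The class that stood apart was that of peaks met by replicate 1 alone. It held 201 clustered peaks (13.1%, 11.4 to 14.9) and 168 of the other peaks (2.67%, 2.28 to 3.10), against 4.71% of all. Seen from the other side, 54.5% of the 369 peaks met by replicate 1 alone lay in clusters (49.2 to 59.6). The same held for 20.0% of peaks met by both, 18.7% of those met by replicate 2 alone and 14.8% of those met by neither. The share rose with cluster size, from 7.95% (6.08 to 10.2) in clusters of 3 through 12.8% (9.51 to 16.7) in clusters of 4 and 19.7% (15.4 to 24.5) in clusters of 5 to 7 to 25% (18.3 to 32.8) in clusters of 8 to 12. In runs of 2 it was 3.71% and in peaks with no close neighbour 2.29%. It was higher in clusters on 6 of 6 chromosomes, most on chromosome III with 18.9% (14.8 to 23.7) against 1.25% (0.670 to 2.14). All intervals treat peaks as independent and cover counting error only, and peaks of 1 cluster often share a replicate peak.

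**Figure D3:**
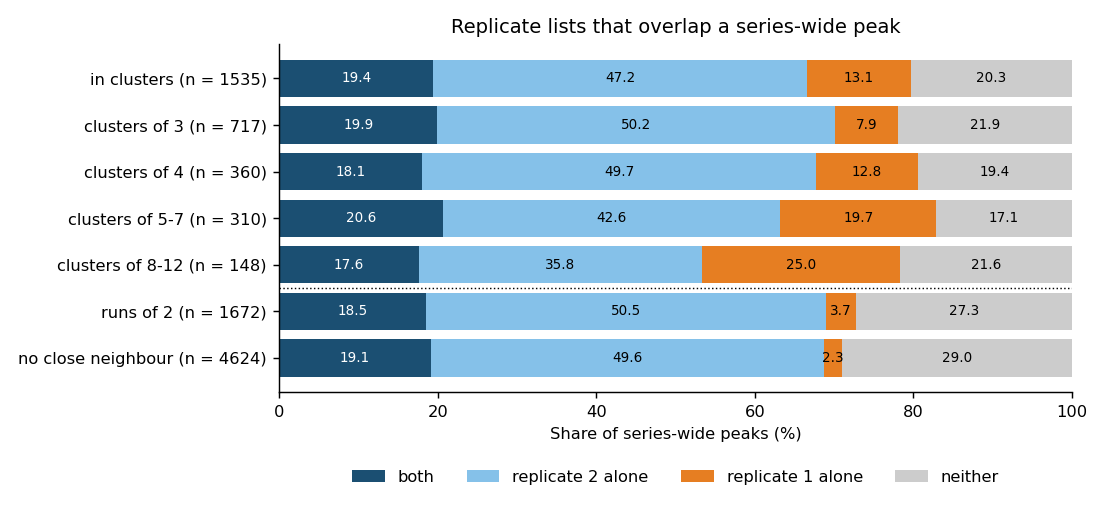
Share of series-wide peaks, in percent, that overlap peaks of both replicates, of replicate 2 alone, of replicate 1 alone or of neither, for all clustered peaks and by cluster size above the dotted line, and for runs of 2 and peaks with no close neighbour below it. Overlap with replicate 1 alone (orange) is 25% in clusters of 8 to 12 peaks and 2.29% in peaks with no close neighbour, while overlap with both stays between 17.6% and 20.6%.

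Peaks were next compared within deciles of series-wide score. In 9 of 10 deciles, all but the lowest, a larger share of clustered peaks met both replicates, with intervals apart in the ninth alone. It was 97.9% (94.0 to 99.6) against 92.7% (90.4 to 94.6) in the highest decile, with intervals that overlap. In the one below it the share was 79.3% (70.5 to 86.4) against 52.7% (48.8 to 56.5). Clustered peaks of these deciles were also wider (660 against 422 bp in the ninth). Within the 5 classes of width the order turned, with a smaller clustered share meeting both in 4 of 5. In all 5 of these classes, however, the clustered peaks had the lower median score. The parts of width and score in this overlap were not tested further. The excess for replicate 1 alone lay in the lower deciles and was present in 5 of 5 width classes. In deciles 1 to 5 it was between 14.3% and 24.7% of clustered peaks and between 2.79% and 5.52% of the others. In the sixth it was 7.69% (3.90 to 13.3) against 2.34% (1.32 to 3.84). It was 1.89% against 2.22% in the seventh and 3.10% against 1.22% in the eighth, with intervals that overlap. In the ninth decile it was 0 of 111 clustered and 1 of 672 other peaks, and in the highest decile 0 of 143 clustered and 0 of 640 other peaks.

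**Figure D4:**
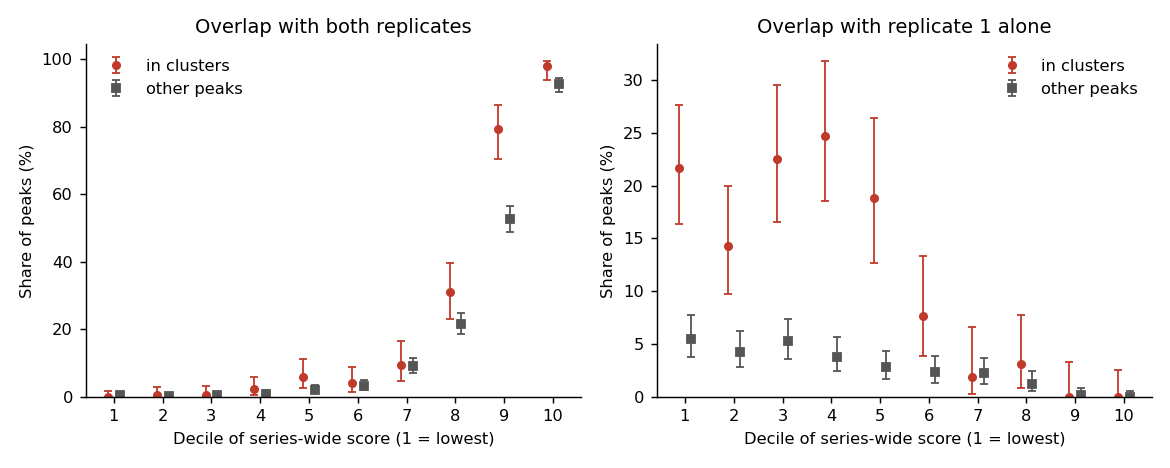
Share of peaks, in percent, that overlap both replicates (left) or replicate 1 alone (right), by decile of series-wide score, for clustered peaks (red circles) and other peaks (grey squares), with exact 95% intervals. Clustered peaks stand above the others for replicate 1 alone in deciles 1 to 6. For both replicates they do so most clearly in decile 9 (79.3% against 52.7%).

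The peaks met by replicate 1 alone were gathered in few clusters. They occurred in 64 of the 401, and in 28 clusters (124 peaks) every member met replicate 1 alone. These 28 had a median highest score of 6.87 (range 3.12 to 19.8), against 21.8 (range 3.13 to 199) in the other 373 clusters. They met 62 replicate 1 peaks, with a median score of 296 (quartiles 144 and 786, lowest 53.05), and 47 of the 62 scored above 139, the median of all replicate 1 peaks. The best replicate 1 score in each cluster ran from 137 to 3128. Without these 28, 77 of 1411 clustered peaks met replicate 1 alone (5.46%, 4.33 to 6.77). In 18 of the 28 a single replicate 1 peak met the whole cluster. X held 9 of these clusters (32.1%, with 24.7% of all clusters), chromosome III 7 (25%, with 20.4%), V 4 (14.3%, with 12.5%), I 3 (10.7%, with 14.5%), II 3 (10.7%, with 11.7%) and IV 2 (7.14%, with 16.2%). With each chromosome cut into 3 equal sections, 13 lay in the left section, 7 in the centre and 8 in the right, and the other clusters had 89, 158 and 126 there.

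The largest of these clusters, chosen after their values were seen, were on chromosomes III and V. On III, 8 peaks from 2077646 to 2082483 lay under a single replicate 1 peak of 5117 bp with a score of 2192, rank 66 of 2001, although none of the 8 scored above 8.34 in the series-wide list. A second set of 8, from 2497414 to 2502683, met 2 replicate 1 peaks with scores of 210 and 1672. Another cluster there, of 7 peaks from 321730 to 333057, met 18 replicate 1 peaks, the run with the most peaks in that list, with scores from 61.2 to 526. On V, 7 peaks from 7919088 to 7923719 lay under a single replicate 1 peak of 6548 bp with a score of 2370, and 7 peaks from 4333365 to 4336365 met 2 peaks with scores of 204 and 925. Near the left end of X, 5 peaks from 109628 to 114089 lay under a replicate 1 peak with a score of 3128. Replicate 2 had no peak at any member of these clusters. Replicate 2 is the longer list, with 5347 peaks against 2001.

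At the level of whole clusters, 204 of 401 had at least 1 peak that met both replicates (50.9%, 45.9 to 55.9), and in 137 it was exactly 1. Of all nuclear peaks 19.1% met both, and any group of several peaks holds such a peak more often than a single peak. The matching share for groups of other peaks was not taken. All peaks met both in 4 clusters. Every peak met replicate 2, with or without replicate 1, in 169 clusters (42.1%, 37.3 to 47.1), and every peak met replicate 1 in 40 (9.98%, 7.22 to 13.3). In 52 clusters no peak met replicate 2. In 10 clusters no peak met either. The highest peak of a cluster met both in 198 of 401 clusters (49.4%, 44.4 to 54.4), that of rank 2 in 16.2% and that of rank 3 in 5.24%. For clusters of 3 the value for the highest peak was 46.9% (40.4 to 53.4), and in the spaced triplets it was 43.3% (40.8 to 45.9).

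Some clusters lay partly or wholly under a single replicate peak. In replicate 2, 166 peaks each lay across at least 2 members of a cluster, in 146 clusters (36.4%, 31.7 to 41.3). In replicate 1, 52 peaks did so, in 46 clusters (11.5%, 8.52 to 15.0). A whole cluster lay under 1 peak in 16 cases in replicate 2 and in 21 in replicate 1. Of the 1134 gaps inside clusters, a replicate 2 peak bridged 222 (19.6%, 17.3 to 22.01) and a replicate 1 peak 116 (10.2%, 8.53 to 12.1). Bridged gaps were short, with a median of 114 bp in replicate 2 and 112.5 bp in replicate 1, against 380 and 324.5 bp for gaps that were not bridged. Most gaps inside clusters were thus bridged in neither list. A gap beside a member that a list did not meet could not be bridged in that list. Of the 1535 members, 724 met replicate 2 alone, 201 replicate 1 alone and 312 neither, so part of the low shares follows from missing calls.

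Applied to the replicate lists themselves, the rule put similar shares of peaks into runs, 226 of 2001 in replicate 1 (11.3%, 9.94 to 12.8) and 613 of 5347 in replicate 2 (11.5%, 10.6 to 12.3). They formed 57 runs in replicate 1 and 176 in replicate 2. Of these runs 38 of 57 (66.7%, 52.9 to 78.6) and 138 of 176 (78.4%, 71.6 to 84.2) overlapped a series-wide cluster. Seen from the 401 clusters, 39 (9.73%) overlapped a run of replicate 1 and 139 (34.7%) a run of replicate 2. These shares depend on the lengths of the lists.

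By chromosome, clusters took up the largest part of the peaks on III and X. On chromosome III 23.4% of peaks were clustered (21.2 to 25.8) and on X 22.9% (21.0 to 24.96). Chromosome IV had 19.2%, V 17.5% and II 16.8%, and I had the smallest share with 15.7% (13.8 to 17.7). The neighbours in this order had overlapping intervals, while those of III and X lay above those of I, II and V. X as a whole exceeded the autosomes, which had 18.6% (17.7 to 19.6), by 4.29 percentage points. In the replicate lists X had the highest share, 16.3% (12.7 to 20.4) in replicate 1 and 14.7% (12.8 to 16.8) in replicate 2. Next were III with 14.7% (11.2 to 18.8) in replicate 1 and V with 12.7% (10.4 to 15.4) in replicate 2. The intervals of III and V overlapped those of X in both lists. Chromosome I had the lowest share, 4.65% (2.68 to 7.44) in replicate 1 and 7.33% (5.73 to 9.20) in replicate 2. Per Mb, III carried 5.95 clusters and X 5.59, and chromosome V carried the fewest with 2.39. The density of all nuclear peaks differed as well. There were 1353 peaks over 13.8 Mb on III, 1762 over 17.7 Mb on X and 1084 over 20.9 Mb on V. Chromosome I, with the smallest clustered share, had 1363 over 15.1 Mb. Chromosome IV had 1200 over 17.5 Mb and II had 1069 over 15.3 Mb. Denser peaks have closer neighbours, and the part of peak density in these shares and counts was not tested. X clusters were also larger. They had 4.08 peaks on average against 3.75 on the autosomes, and a median span of 2539 against 2294 bp. Single autosomes came closer, with 3.87 peaks on average on III and a median span of 2478 bp on II. X held 24.7% of all clusters, 6 of the 16 with 8 or more peaks and 3 of the 5 that span over 10 kb.

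**Figure D5:**
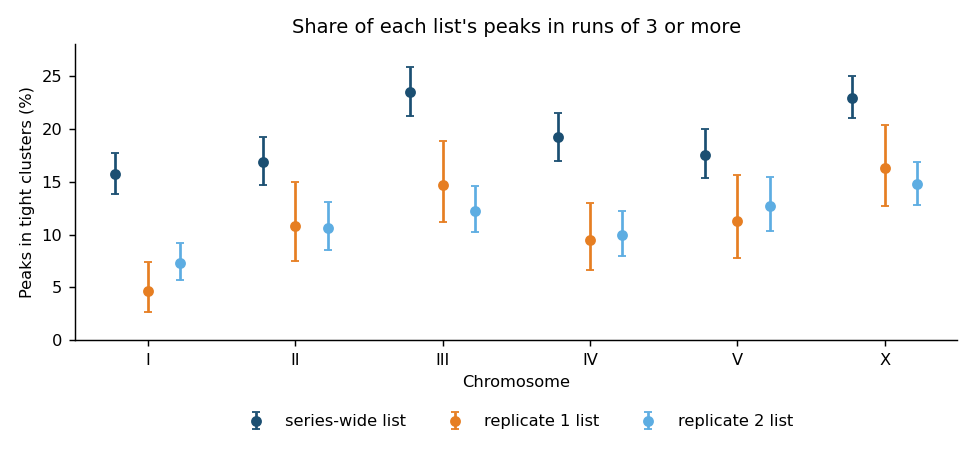
Share of peaks, in percent, that lie in runs of 3 or more with gaps under 1000 bp, for each chromosome in the series-wide list and in each replicate list, with exact 95% intervals. X is highest in both replicate lists (16.3% and 14.7%), with intervals that overlap those of III and V. Chromosome I is lowest in all 3 lists (15.7%, 4.65% and 7.33%).

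Clusters were also placed by section, over the same 3 sections. On the autosomes of C. elegans the centres recombine less than the arms. In the centre 20.5% of peaks were clustered (19.0 to 22.01), against 17.7% (16.1 to 19.3) in the left section and 20.4% (18.9 to 22.01) in the right section. On chromosome II 19 of 233 left peaks were clustered (8.15%, 4.98 to 12.4), against 19.1% in its centre and 19.5% on its right. The log2 ratio of peak density in the centre to that in both flanks averaged 0.38 ± 0.35 for clustered peaks and 0.23 ± 0.21 for the others (SD, n = 6 chromosomes). It was 0.84 for clustered peaks on chromosome I, 0.74 on II and 0.44 on III, and 0.16 or less on V, IV and X. On IV and V clustered peaks had the smaller ratio, 0.04 against 0.26 for the others on IV and 0.16 against 0.48 on V. The value for clusters turned negative in the replicate 1 list (-0.95) and for clusters of 4 or more peaks (-0.27).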

How the data were processed

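Peak lists were read as the authors deposited them, and the score of each peak is the authors' peak caller's own value. Per the file headers and source columns, the build is WormBase WS220, the replicate lists come from MACS and the series-wide list from MACS v2; the submitters' processing notes name BWA and ce10. Versions, filters, how the input was used and how replicates were combined: not given in the sources used here. Such choices can create, divide or remove close peaks. Crosslinking used EGS (20 minutes) and then EGS with formaldehyde (10 minutes), per the labels' protocols.

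Mitochondrial peaks were left out. Runs, overlaps and exact Clopper-Pearson 95% intervals used pandas 2.3.3, SciPy 1.17.1 and NumPy 2.4.6 under Python 3.11.15, and plots matplotlib 3.10.9. Chromosome extents are the last base of any deposited nuclear peak. Coordinates were not joined to genes, since the gene table at hand is of another assembly. No chance test was made: each replicate list is 1 sample, the series-wide list names no single sample, and members were chosen on the values described. The members, the comparisons and the alternatives were chosen with earlier results of these data known. The clusters named in the text are the 10 with the most peaks, the largest of each chromosome, the 5 with the highest peak score and the 3 with the widest span, except where stated. The run finder and the overlap search were tested on simulated lists.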

Additional observations from a re-analysis of the deposited data

Results flagged for a closer look

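The mitochondrial genome lay outside all comparisons, which used nuclear peaks. The series-wide list holds 3 peaks there, separated by gaps of 96 and 248 bp, so the same rule would join them into a single run of 3. Their scores were between 7.73 and 8.76, and the replicate lists hold 0 mitochondrial peaks each.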

How the results depend on the processing

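The comparison with replicate 1 alone with its alternatives, and those that leave out chromosome III or the 28 clusters met by replicate 1 alone, were added after the values were seen. A value was taken as moved when it differed from the one reported by more than the SD between the replicates. For replicate 1 alone that SD (9.26 points) was borrowed from the difference in overlap taken with each replicate, so it is a loose limit. For replicate peaks across 2 or more members, a limit on the ratio of the counts was used instead. The share of peaks in clusters (19.6%) depends on the rule: it was 10.6% with gaps under 500 bp, 32.6% under 2000 bp, 10.4% for runs of 4 or more, 41.0% for runs of 2 or more, 5.03% among peaks at or above the median score, 20.2% with midpoints under 1500 bp apart and 18.3% without the 28 clusters; without replicate 1 or 2 (the rule in the other list) it was 11.3% to 11.5%. The score ratio (0.742) was 0.779 with gaps under 2000 bp, 0.767 for runs of 2 or more, 0.707 against peaks with no close neighbour and 0.797 without the 28 clusters. It reversed to 1.08 among peaks at or above the median score, and to 1.09 to 1.12 in the replicate lists. The width ratio (1.12) stayed above 1. It was 1.09 for gaps under 2000 bp, 1.19 for runs of 4 or more and 1.07 for runs of 2 or more. Among peaks at or above the median score it was 1.31, and in the replicate lists 1.13 to 1.17. All these settings measured gaps from edge to edge.

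The difference in overlap with both replicates (0.433 percentage points) has no stable sign. It was -0.130 for runs of 4 or more, -0.181 for runs of 2 or more, -4.04 with a reciprocal overlap of 50% and -0.947 with midpoints within 500 bp, and with 1 replicate it ranged from -2.24 to 10.9. The difference for replicate 1 alone (10.4 points) stayed positive under the 9 alternatives tried, with 0.0977 among peaks at or above the median score, 3.97 with a reciprocal overlap of 50%, 5.28 for clusters of 3 only and 8.63 without chromosome III. The X excess (4.29 points) was 7.43 with gaps under 2000 bp, 2.08 for runs of 2 or more, 1.97 among peaks at or above the median score, 5.67 without chromosome III, and 4.27 to 6.15 in the replicate lists. The log2 ratio of centre to flanks (0.38) was -0.27 for runs of 4 or more and ranged from -0.95 to 0.31 in the replicate lists. Replicate peaks across 2 or more members numbered 218, and 175 where 50% of each member had to be covered. The causes were not tested. No paired analysis was possible because the input samples have no values here and no test was made. Unknown depth limits any reading of a missing peak.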
